A study of Mus musculus with 6 samples.

Results

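Immediate-early genes are switched on within minutes of a stimulus without new protein synthesis, and 10 of them were followed here in myeloid cells of the mouse pancreas. They are Fos, Fosb, Jun, Junb, Jund, Egr1, Egr2, Egr3, Atf3 and Ier2, taken by symbol through the mouse GENCODE vM21 annotation, and they make up 10 of the 21780 genes in the count table. All 10 passed the filter on low counts and were among the 14429 genes tested. They were chosen by name, with earlier results of these data known.

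Live cells positive for CD45 and CD11b were sorted from digested pancreata of C57BL/6J mice, 7 days after 1 intraperitoneal injection. CD45 marks leukocytes, and CD11b is an integrin chain carried mainly by myeloid cells. The PBS group (3 libraries) received the saline vehicle, and the WGP group (3 libraries) received 1 mg of WGP, hollow yeast cell wall particles rich in β-glucan that phagocytes take up. The mice were 6 to 8 weeks old and of both sexes. In both groups the pancreas was digested with collagenase, hyaluronidase and DNase before the sort. Whether the digestion and the sort acted alike on both groups was not tested. The labels tie no library to an animal, while the study describes the samples as independent animals of a single experiment, so the p-values measure the spread between libraries within that experiment.

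Fos and Jun family proteins pair through a leucine zipper to form AP-1, a transcription factor that binds DNA as a dimer. Jun proteins can pair with each other, whereas Fos proteins need a Jun or another partner. The EGR proteins are zinc finger factors induced by the same growth factor, stress and MAP kinase signals, Atf3 is a stress-induced zipper protein that can pair with Jun proteins, and Ier2 is a small nuclear protein of the immediate-early response. In macrophages these genes answer to microbial ligands and adhesion, and they are also known to be induced when tissue is dissociated into single cells.

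In the cells from WGP-treated mice 6 of the 10 genes were lower and 4 did not pass the test. Fosb, Jun, Egr1, Jund and Atf3 fell to between 16.3% and 35.1% of their PBS means, and Ier2 fell to 60.8%. Fos and Junb remained among the most abundant transcripts of the WGP libraries, at 85.0% and 82.4% of their PBS means, and neither passed the test. Egr2 and Egr3 had higher means after WGP and did not pass either.

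A gene was called when its p from edgeR's quasi-likelihood test, adjusted over all genes tested, was at most 0.05 and its log2 fold change was at least 1 in either direction. By this rule 5 of the 10 genes were called lower, beside 4.96% of all genes tested, and 0 were called higher, beside 4.53%. Past the adjusted p alone were 6 lower genes, beside 6.81% of all genes, and 0 higher genes, beside 7.54%. At an unadjusted p under 0.05 edgeR also gave 0 higher members, and DESeq2 and limma-voom called 0 higher. The 3 PBS and 3 WGP values did not overlap in 6 of the 10 genes, beside 32% of all genes tested. The median log2 fold change of the 10 genes was -1.11, against -0.05 over all genes tested.

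Library totals ranged from 35334645 to 43341834 counts, and the lowest count of any member was 951, so counting error was small beside the spread between libraries. The labelled myeloid identity was matched by its 7 markers, among them Ptprc, Itgam and Csf1r, whose summed level lay between 9537 and 15360 CPM, the counts scaled to a common library size, in PBS and between 22290 and 23690 in WGP. Markers of resident macrophages summed to between 8881 and 18370 CPM in PBS and between 3223 and 5334 in WGP, with 9 of 11 past the adjusted p lower and 1 higher. Of the 8 Ly6C-high monocyte markers 5 were past it higher and 1 lower, with sums of 2671 to 4230 CPM in PBS and 3865 to 4439 in WGP. The marker that fell, F13a1, made up much of the PBS sum, at 1335, 2728 and 3472 CPM against 422, 347 and 503 in WGP. B cell markers fell from between 361 and 2414 CPM to between 86.8 and 169, acinar cell markers from between 1079 and 4572 to between 298 and 538, and all 5 and all 7 of those tested were past the adjusted p. The platelet markers summed to between 263 and 453 CPM in PBS and between 11.3 and 16.9 in WGP. Nearly all of that sum in PBS was Pf4, at 260.8, 380.2 and 450.2 CPM, and Gp9 and Gp1bb, which define platelets, were at 0 in every library. The summed neutrophil markers overlapped, at 1584 to 5308 CPM in PBS and 2267 to 2434 in WGP, with a median log2 fold change of -0.75. Of the 8 markers Csf3r and Cxcr2 were past the adjusted p higher, and the other 6 had lower means in WGP and did not pass. The summed markers of conventional dendritic cells, NK cells, T cells, eosinophils, mast cells with basophils, erythroid, islet, endothelial and mesothelial cells were at most 194 CPM in any library. The dendritic cell sums did not overlap, at 148 to 194 CPM in PBS and 67.55 to 130 in WGP, with 1 marker past the adjusted p lower. NK cells also had 1 marker past it lower, and T cells and endothelial cells had 1 each past it higher. Y-linked counts were present in 2 of the 3 PBS libraries and in 0 of the 3 WGP libraries. WGP replicate 2 stood apart by its fibroblast markers, which reached 1803 CPM there and at most 171 in any other library. PBS replicate 1 held the highest B cell and neutrophil sums of any library and the lowest resident macrophage sum of the PBS libraries, and was the PBS library without Y-linked counts. The part of these differences in the results below was not tested, except that the calls and fold changes were also computed without each library and with Y-linked counts as a covariate, and the family shares without each library. In such bulk libraries fewer cells of a type and less RNA per cell cannot be told apart.

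**Figure D1:**
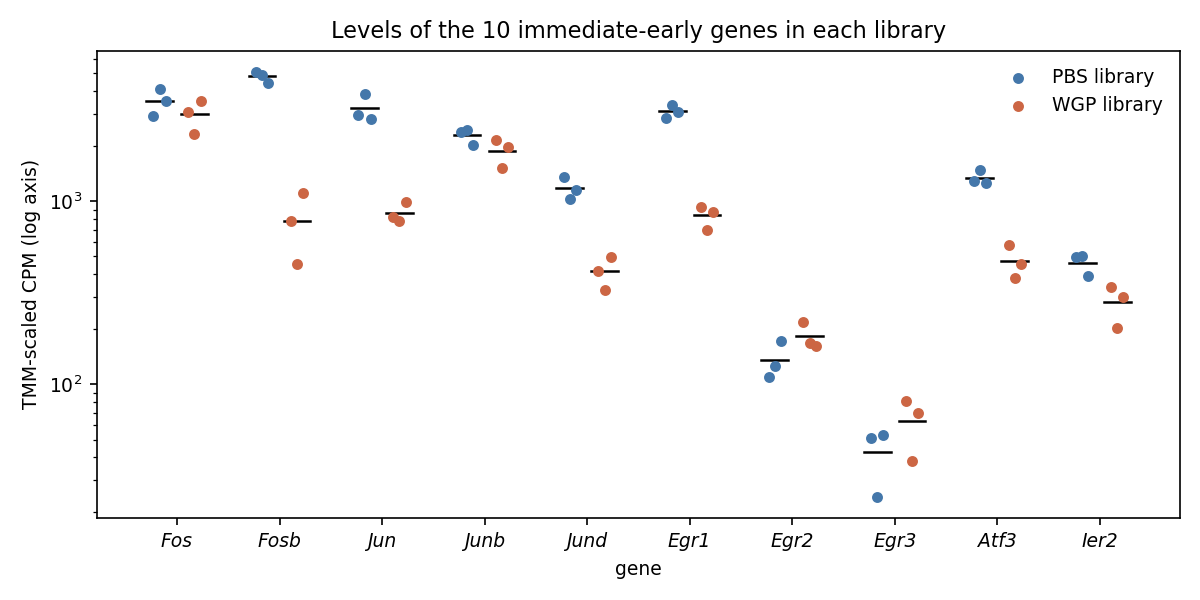
Level of each of the 10 genes in each library, in TMM-scaled CPM on a log axis. Blue points are the 3 PBS libraries, orange points the 3 WGP libraries and bars the group means, and the colours are fully separated for Fosb, Jun, Jund, Egr1, Atf3 and Ier2.

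The AP-1 genes hold examples of near relatives in the same libraries of which one fell and the other did not pass the test. These were Fosb beside Fos and Jun beside Junb, and whether each pair was expressed in the same cells was not tested. To show what precedes each of these 4 genes, the 120 bases before the RefSeq transcription start are given 5′ to 3′ on the gene's own strand (GRCm38.p6), with matches to the searched motifs in capitals.

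Fos (chr12:85473770-85473889, plus strand): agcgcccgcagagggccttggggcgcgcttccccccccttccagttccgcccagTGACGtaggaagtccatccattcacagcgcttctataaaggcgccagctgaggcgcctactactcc

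Fosb (chr7:19310046-19310165, minus strand): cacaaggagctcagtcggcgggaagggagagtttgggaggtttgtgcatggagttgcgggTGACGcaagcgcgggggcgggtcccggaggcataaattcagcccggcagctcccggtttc

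Jun (chr4:95052223-95052342, minus strand): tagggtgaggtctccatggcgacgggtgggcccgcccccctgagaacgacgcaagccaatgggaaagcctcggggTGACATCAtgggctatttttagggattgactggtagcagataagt

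Junb (chr8:84978749-84978868, minus strand): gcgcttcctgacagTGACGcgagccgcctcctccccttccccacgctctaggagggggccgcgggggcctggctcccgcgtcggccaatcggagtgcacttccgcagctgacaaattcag

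Fos, Fosb and Junb each carried the half-site TGACG of the cyclic AMP response element, at 66 to 62, 60 to 56 and 106 to 102 bases before the start. Jun carried TGACATCA, a variant of that element known to bind Jun and ATF family dimers, at 45 to 38 bases before the start. Both strands of the 250 bases before the start were searched for this half-site, for the full element TGACGTCA in which the half-site lies, and for the variant. The AP-1 site TGACTCA, the EGR site GCGTGGGCG and the CArG box to which serum response factor binds were searched in the same way. Bases further from the start were not searched, so a motif not listed here may lie there. Over 32851 RefSeq promoter windows of that length 17.8% held the half-site and 2.93% held TGACATCA. The full element was in 1.55% of the windows, the AP-1 site in 4.46%, the EGR site in 0.536% and a CArG box in 1.47%. Promoter entries were found for 7 of the 10 genes. A second half-site of Fos lay at 129 to 125 bases before the start. Egr2 held a CArG box in 4 of its 5 windows, 3 of which overlap and share the same box and the same pair of half-sites. Atf3 held the half-site at 7 to 3 bases before a start within the annotated gene. The window listed for Jund held none of the motifs, but it ends at position 70697738, apart from the annotated start of the gene, and so does not describe the bases next to that start.

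Fosb (ENSMUSG00000003545, chr7:19302696-19310051) encodes a Fos family partner of the Jun proteins. Its level was 5085, 4883 and 4448 CPM in the PBS libraries and 782, 452 and 1110 CPM in the WGP libraries. Every PBS library lay above every WGP library. The mean fell from 4805 ± 325 to 781 ± 329 CPM (SD, n = 3), a log2 change of -2.62 ± 0.29 (SE) with an edgeR adjusted p of 0.000214. This was the largest change among the 10 genes. Fosb ranked 5, 6 and 8 among all genes by counts in the PBS libraries, and 157, 345 and 75 in the WGP libraries.

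Fos (ENSMUSG00000021250, chr12:85473890-85477273), the prototype of the family, measured 2939, 4098 and 3511 CPM in PBS and 3086, 2338 and 3547 CPM in WGP. The groups overlapped, with WGP replicate 2 the lowest and PBS replicate 2 the highest library. The means were 3516 ± 580 and 2990 ± 610 CPM (SD, n = 3). The log2 fold change was -0.23, with a 95% interval from -0.67 to 0.20 and an adjusted p of 0.484 from edgeR. By counts Fos ranked 17, 12 and 19 in the PBS libraries and 19, 29 and 17 in the WGP libraries.

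Jun (ENSMUSG00000052684, chr4:95049034-95052222) encodes c-Jun, a strongly activating Jun protein. It measured 2975, 3843 and 2833 CPM in the PBS libraries and 824, 777 and 987 CPM in the WGP libraries. The highest WGP library, replicate 3, was well under the lowest PBS library, also replicate 3. The mean fell from 3217 ± 547 to 863 ± 110 CPM (SD, n = 3), a log2 change of -1.90 ± 0.18 (SE) at an edgeR adjusted p of 9.07e-05. Junos, an antisense gene, lies over Jun on the other strand, and since the strand setting of the counting is not given in the sources used here, its reads could not be told from those of Jun.

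Junb (ENSMUSG00000052837, chr8:84974484-84978718) encodes a Jun protein that activates less strongly than c-Jun and can oppose it. Its level was 2392, 2448 and 2031 CPM in PBS and 2164, 1515 and 1985 CPM in WGP. The groups overlapped, since WGP replicate 1 lay above PBS replicate 3. The means were 2290 ± 226 and 1888 ± 335 CPM (SD, n = 3), with a log2 fold change of -0.28, a 95% interval from -0.67 to 0.11 and an adjusted p of 0.359 from edgeR. The gene overlaps Prdx2, a peroxiredoxin gene on the other strand, and how reads of the overlap were counted is not given in the sources used here.

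Jund (ENSMUSG00000071076, chr8:70698949-70700616) encodes the Jun protein usually present in resting cells. Its level was 1363, 1029 and 1153 CPM in the PBS libraries and 417, 327 and 500 CPM in the WGP libraries. The groups did not overlap. The mean fell from 1182 ± 169 to 415 ± 86.2 CPM (SD, n = 3), a log2 change of -1.51 ± 0.19 (SE) at an edgeR adjusted p of 0.000489. The antisense gene Gm11175 lies over it on the other strand.

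Egr1 (ENSMUSG00000038418, chr18:34859823-34864984) encodes the best known EGR factor, induced by serum, stress and phagocyte activation. Its level was 2860, 3372 and 3064 CPM in PBS and 936, 696 and 878 CPM in WGP. The libraries of each group lay close together and far from the other group. The mean fell from 3099 ± 258 to 837 ± 125 CPM (SD, n = 3), a log2 change of -1.89 ± 0.17 (SE), and the adjusted p of 6.02e-05 from edgeR was the smallest of the 10 genes.

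Egr2 (ENSMUSG00000037868, chr10:67535475-67542188), a factor with roles in myelination and in macrophages and lymphocytes, was far less abundant. It measured 109, 127 and 172 CPM in PBS and 219, 168 and 161 CPM in WGP, so that PBS replicate 3 lay above WGP replicates 2 and 3. The means were 136 ± 32.5 and 183 ± 31.8 CPM (SD, n = 3), with a log2 fold change of 0.43, a 95% interval from -0.01 to 0.87 and an adjusted p of 0.207 from edgeR. Egr3 (ENSMUSG00000033730, chr14:70077203-70082614), a close relative of Egr2, measured 50.8, 24.4 and 53.0 CPM in PBS and 81.5, 38.2 and 69.7 CPM in WGP. Replicate 2 was the lowest library in both groups, and the groups overlapped. The means were 42.7 ± 15.9 and 63.1 ± 22.4 CPM (SD, n = 3), and the log2 fold change was 0.56, with a 95% interval from -0.18 to 1.31 and an adjusted p of 0.334 from edgeR. For neither gene did these intervals exclude no change.

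Atf3 (ENSMUSG00000026628, chr1:191170296-191218039) encodes a stress factor known to restrain inflammatory gene expression in macrophages. Its level was 1295, 1476 and 1267 CPM in the PBS libraries and 580, 383 and 452 CPM in the WGP libraries, without overlap. The mean fell from 1346 ± 113 to 472 ± 99.8 CPM (SD, n = 3), a log2 change of -1.51 ± 0.18 (SE) at an edgeR adjusted p of 0.000344. A short RNA gene, Gm24748, lies within it on the other strand.

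Ier2 (ENSMUSG00000053560, chr8:84661331-84662852) measured 495, 501 and 393 CPM in PBS and 341, 205 and 299 CPM in WGP. The groups did not overlap, although PBS replicate 3 and WGP replicate 1 were close. The mean fell from 463 ± 60.6 to 281 ± 69.9 CPM (SD, n = 3). The log2 change was -0.72 ± 0.20 (SE) at an edgeR adjusted p of 0.0379, under the fold set for a call. The adjusted p of Ier2 missed the threshold under the Y-linked covariate (0.0746) and when PBS replicate 1 (0.0612), PBS replicate 2 (0.137), WGP replicate 2 (0.0859) or WGP replicate 3 (0.0931) was left out, in a range from 0.0032 to 0.137 over 16 alternatives.

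**Figure D2:**
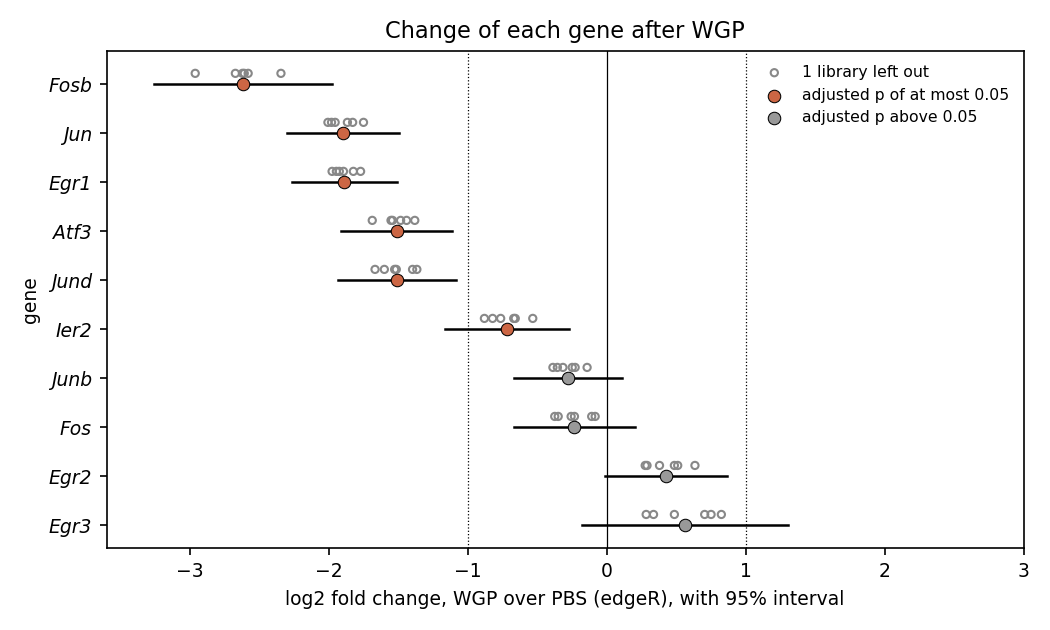
Log2 fold change of each gene, WGP over PBS, from edgeR, with its 95% interval as a horizontal bar; open circles are the values with 1 library left out and dotted lines mark the fold set for a call. The 5 genes from Fosb to Jund have intervals wholly below a log2 fold change of -1, the point of Ier2 lies between -1 and 0 with an interval that crosses -1, and the intervals of Junb, Fos, Egr2 and Egr3 include 0.

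Of the 5 genes called lower, each stayed below an adjusted p of 0.05 in all 16 alternatives to the main test, with the highest value, 0.00377, for Jund without WGP replicate 1. One of these alternatives, the Y-linked covariate, rests on PBS replicate 1 as the only PBS library set against WGP, and takes its spread from the other libraries. Fos, Junb, Egr2 and Egr3 passed in 0 of the 16. Among the WGP libraries replicate 2 was the lowest for 9 of the 10 genes, all but Egr2. Without this library the log2 fold change of Fosb was -2.35, the smallest in a range from -2.96 to -2.35 over the libraries left out in turn.

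The genes took a large share of the sequenced RNA. Together they held 2.13%, 2.21% and 1.91% of the counts of the PBS libraries and 0.909%, 0.660% and 0.974% of the counts of the WGP libraries. In PBS, Fosb alone accounted for between 0.449% and 0.553% of a library, and in WGP for between 0.0433% and 0.108%. Egr1 ranked 20, 20 and 22 by counts in PBS and 103, 176 and 113 in WGP. Junb ranked between 25 and 39 in PBS and between 34 and 55 in WGP. Ier2, a less abundant gene, went from ranks between 219 and 360 to ranks between 510 and 989, while Egr3 stood between 3935 and 6236 in PBS and between 2828 and 4975 in WGP.

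**Figure D3:**
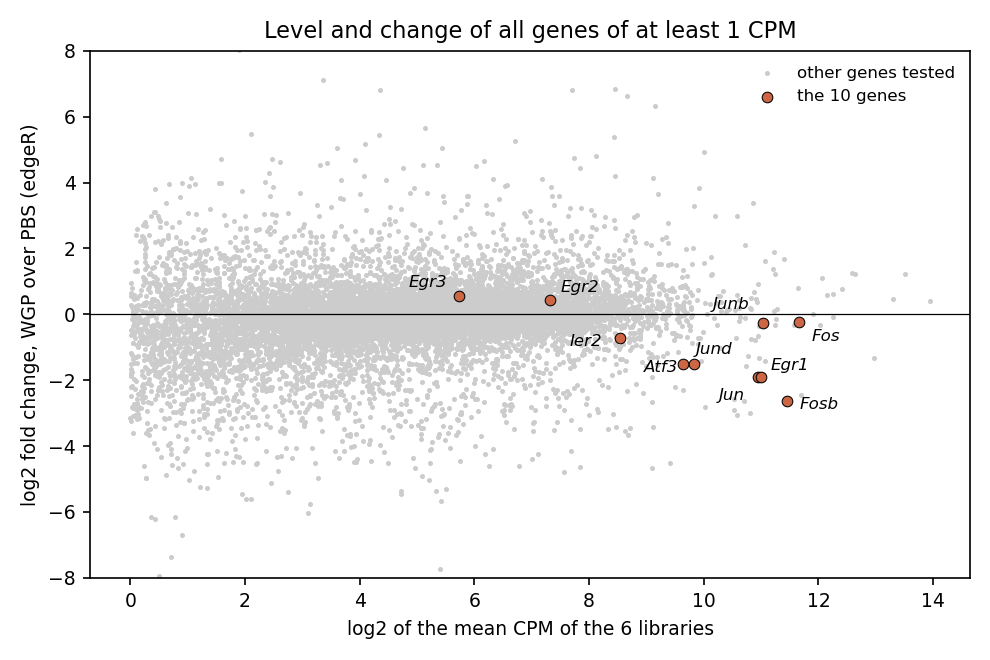
Log2 of the mean CPM over the 6 libraries against the log2 fold change, WGP over PBS, from edgeR, for tested genes of at least 1 CPM and within the axes. Grey points are other genes and orange points the 10 genes, of which 8 lie below 0 and most sit among the most abundant transcripts.

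Levels of different genes can be compared only per length, so CPM was divided by the kilobases of annotated exon. On this scale Fos led in PBS, at 1495 CPM per kb, above Jun (1009) and Junb (995), which overlapped each other. Next came Fosb (770), Jund (708), Egr1 (691) and Atf3 (625), in which each overlapped the next. Ier2 (304), Egr2 (40.0) and Egr3 (9.70) followed without overlap. In WGP the order per kb was Fos (1271) and then Junb (821), both separate from their neighbours, and then Jun (271), Jund (249), Atf3 (219), Egr1 (187), Ier2 (185) and Fosb (125), in which each again overlapped the next. Egr2 (53.8) and Egr3 (14.3) remained last. Fosb therefore took place 4 of the 10 per kb in PBS and place 8 in WGP. The exon lengths cover all annotated isoforms, so that levels per kb are understated for genes with long alternative exons. Fosb was divided by 6243 bases and Fos by 2352, so the place of Fosb and its ratio to Fos depend on these lengths. Before the division Fosb lay above Fos in every PBS library.

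The make-up of each family within a library does not depend on the scaling between libraries. Of the summed Fos and Fosb counts per kb, Fosb took 39.5%, 31.0% and 32.3% in PBS and 8.71%, 6.79% and 10.5% in WGP, a difference of -25.6 percentage points between the means. The ratio of Fos to Fosb per kb was 1.53, 2.23 and 2.10 in PBS and 10.5, 13.7 and 8.48 in WGP. Among the 3 Jun genes the share of Junb was 37.3%, 36.9% and 35.8% in PBS and 64.9%, 59.9% and 58.6% in WGP, while that of Jun went from a mean of 37.1% to 20.4% and that of Jund from 26.3% to 18.5%. Junb per kb was thus close to Jun in PBS, with ratios of 1.11, 0.883 and 0.993, and above it in WGP, with ratios of 3.64, 2.70 and 2.79. Among the 3 Egr genes Egr1 took 93.6%, 94.6% and 91.6% in PBS and 71.5%, 72.8% and 75.6% in WGP, with Egr2 going from a mean of 5.40% to 21.2% and Egr3 from 1.33% to 5.50%. No share overlapped between the groups for any of the 8 genes. For levels, a different measure, this held in 32% of all genes tested. The shares of a family sum to a whole, so the 8 are not separate results. The shares of Fos, Junb, Egr2 and Egr3 rose, while the levels of these genes did not pass the test. An exact two-sided permutation test gave p = 0.1 for each share, the smallest value that 3 against 3 libraries can give, so no share could pass 0.05.

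**Figure D4:**
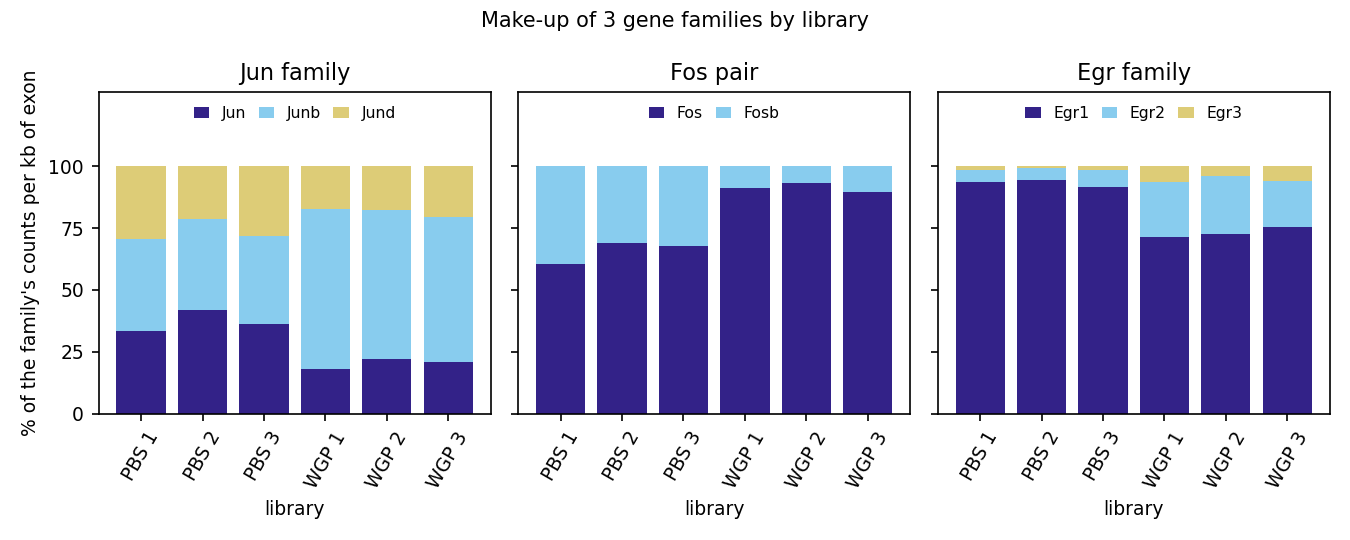
Share of each gene in the summed counts per kb of its family, in percent, by library, for the 3 Jun genes, Fos with Fosb, and the 3 Egr genes; each bar sums to 100%. Junb takes between 35.8% and 37.3% of the Jun bars in PBS and between 58.6% and 64.9% in WGP, and the Fosb part shrinks to at most 10.5%.

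Other genes of the same families were read from the same edgeR fit, as lists taken by function, and each list's counts stand beside 7.54% higher and 6.81% lower among all genes tested. Of 22 further AP-1, bZIP and EGR family genes, 3 were past the adjusted p higher, 5 lower and 14 not past it, both above the shares of all genes, with a median log2 fold change of 0.09. Batf2, a BATF factor linked to inflammatory macrophages, rose from 9.17 ± 0.809 to 110 ± 49.5 CPM (log2 fold change 3.58, adjusted p = 4.65e-05). Nfe2l2, the master factor of the oxidative stress response, rose from 222 to 576 CPM (1.38, 0.000411 from edgeR), and Mafk, a small Maf protein that pairs with it, fell from 152 to 54.2 CPM (-1.49, 0.000272). Fosl1 and Fosl2, the remaining Fos family genes, were named after their values were seen. Fosl1 was low in every library and fell from 13.9 ± 7.38 to 0.831 ± 0.919 CPM (adjusted p = 0.0392), a call lost with edgeR's filterByExpr (0.0548) and without PBS replicate 1 (0.110), PBS replicate 2 (0.0774), PBS replicate 3 (0.0639) or WGP replicate 2 (0.0752). Its log2 fold change of -4.07 moved to -5.71 in limma-voom, -4.80 with the replicate block, -4.75 with the Y-linked covariate, -5.35 without WGP replicate 1 and -3.48 without WGP replicate 3. Fosl2 measured 385 ± 78.7 and 563 ± 292 CPM and did not pass (adjusted p = 0.309). Of the NAB corepressors of EGR proteins, also named after their values were seen, Nab1 rose from 81.3 to 122 CPM (adjusted p = 0.0248), and Nab2 measured 77.2 and 113 CPM (0.125). The rise of Nab1 did not pass in 6 alternatives, among them library totals only (adjusted p = 0.066) and the Y-linked covariate (0.155).

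The kinases and factors known to induce these genes were read next. Of 28 MAP kinase pathway and serum response genes, 4 were past the adjusted p higher, 2 lower and 22 not past it, beside 7.54% higher and 6.81% lower of all genes tested, with a median log2 fold change of 0.01. Mapkapk3 and Mapkapk2, kinases downstream of p38, rose from 47.0 to 124 CPM (log2 fold change 1.40, adjusted p = 0.00122) and from 333 to 586 CPM (0.82, 0.00442). Mapk9, which encodes the kinase JNK2, rose from 49.2 to 90.0 CPM (0.87, 0.00400). Map3k8, a kinase that links Toll-like receptors to ERK and was named after its values were seen, fell from 158 to 73.9 CPM (-1.10, 0.00462). Of 18 feedback inhibitors of the pathway 0 were past the adjusted p higher, 4 lower and 14 not past it, with a median of -0.32. The MAP kinase phosphatase Dusp8 fell from 20.7 to 2.71 CPM (-2.93, 0.00217), the RAS pathway inhibitor Spry1 from 7.41 to 0.927 CPM (adjusted p = 0.0117) and the RAS GTPase activating gene Rasa1 from 92.3 to 51.8 CPM (-0.83, 0.0120). At an unadjusted p under 0.05 edgeR gave 0 of the 18 higher, and DESeq2 and limma-voom called 0 higher. Rasa1 missed the threshold with the Y-linked covariate (0.0572) and without PBS replicate 2 (0.0647) or WGP replicate 3 (0.0579). Dusp1, an abundant immediate-early phosphatase named after its values were seen, measured 2686 ± 559 and 2150 ± 363 CPM and did not pass (adjusted p = 0.356).

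Among 39 other immediate-early genes 4 were past the adjusted p higher, 18 lower and 17 not past it, and the median log2 fold change was -0.66. Rhob, a small GTPase, fell from 860 to 230 CPM (log2 fold change -1.90, adjusted p = 4.16e-05), and Klf4, a Krüppel-like factor of monocytes and macrophages, fell from 1183 to 258 CPM (-2.20, 6.23e-05). In both genes all PBS libraries lay above all WGP libraries. Ccrl2, an atypical chemoattractant receptor induced by inflammatory stimuli, rose from 175 to 669 CPM (1.94, 6.24e-05).

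Heat shock genes, which are also known to be induced by tissue dissociation, were read beside them. Of 14 genes 11 were past the adjusted p lower, 0 higher and 3 not past it, and the median log2 fold change was -2.17. All 14 had a negative log2 fold change, so 0 were higher at any threshold, and 0 were called higher by DESeq2 or limma-voom. Dnajb4, an HSP40 co-chaperone, fell from 94.5 to 10.2 CPM (log2 fold change -3.21, adjusted p = 1.33e-05), the inducible chaperone Hsp90aa1 from 737 to 170 CPM (-2.11, 0.000339) and the co-chaperone Bag3 from 313 to 59.9 CPM (-2.39, 0.000549). Hspa1a, which encodes inducible HSP70, fell from 3167 ± 1006 to 401 ± 245 CPM (-2.98, 0.00192), and its near-identical copy Hspa1b makes the split of reads between them uncertain. Hspa8, the constitutive relative, measured 1757 and 1611 CPM and was among the 3 genes that did not pass (-0.13, 0.699). Hspa5, Hspd1 and Hsp90ab1 of the same list did pass lower. Their log2 fold changes were -1.01, -0.92 and -0.74, with edgeR adjusted p of 0.0135, 0.0220 and 0.0343. Hspa1a, Hspa8, Hspa5, Hspd1 and Hsp90ab1 were named after their values were seen.

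Of 16 genes known as AP-1 or EGR targets 3 were past the adjusted p higher, 6 lower and 7 not past it, beside 7.54% and 6.81% of all genes tested, with a median log2 fold change of -0.33. Plau, the urokinase gene, fell from 162 to 53.7 CPM (log2 fold change -1.59, adjusted p = 0.000267). Spp1, which encodes osteopontin, rose from 9.67 ± 0.693 to 56.8 ± 0.855 CPM (2.55, 2.34e-05), and Vegfa, the endothelial growth factor gene, rose from 23.7 to 157 CPM (2.73, 0.00133), or by 2.10 on the log2 scale with the Y-linked covariate (0.0235).

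**Figure D5:**
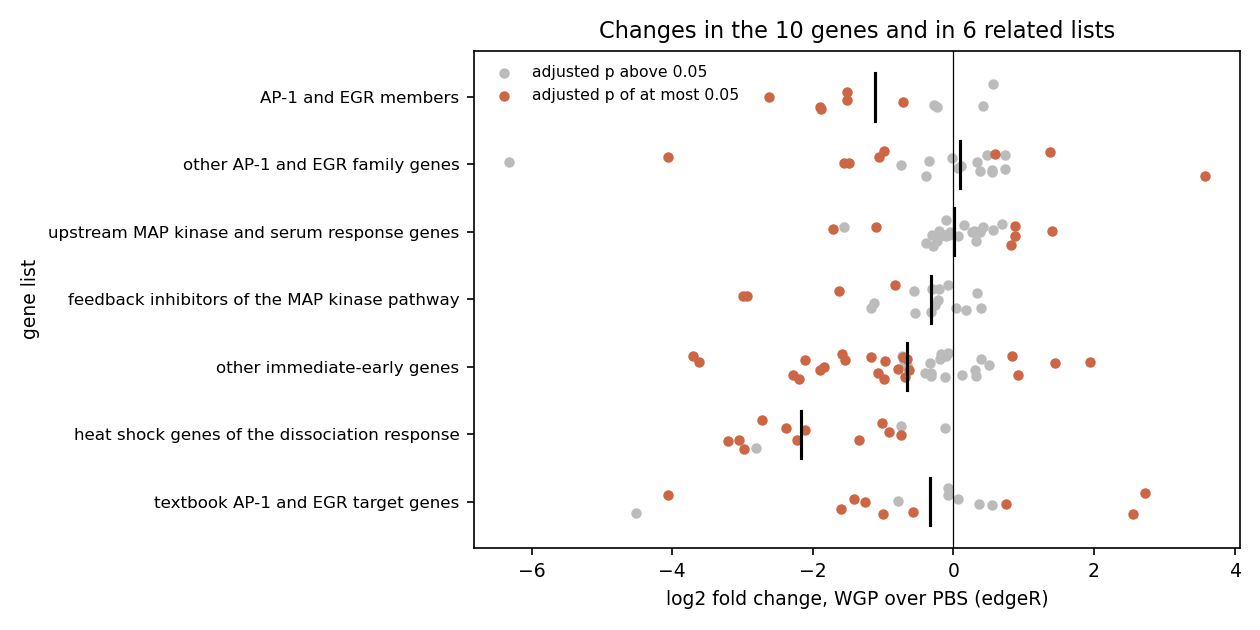
Log2 fold change, WGP over PBS, from edgeR, of each of the 10 genes and of each gene in 6 related lists, some of which share genes. Orange points have an adjusted p of at most 0.05, grey points a higher one, and black bars are the medians, which run from -2.17 for the heat shock genes to 0.09 for the other AP-1 and EGR family genes.

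The genes whose log2 CPM followed a member most closely over the 6 libraries were found among 8558 genes with a mean of at least 10 CPM, as a description without a test, since the libraries share the difference between the groups. For Fos these were Nipbl (Pearson r = 0.987), Stx17 (0.986) and Acvrl1 (0.981). For Jun they included Fam71a and Smc3 (0.996 each), and for Egr1 they were Gpr34 (0.999), Cadm1 (0.998) and Metap1d (0.998). At r of at least 0.95 there were 22 genes for Fos, 230 for Jun and 279 for Egr1. Jun and Egr1 thus had many more genes of like pattern than Fos, whose groups overlapped.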

How the data were processed

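Libraries of polyadenylated RNA were sequenced from 3 PBS and 3 WGP samples, grouped by their labels. The authors aligned single-end reads to mm10 (GRCm38.p6) with STAR 2.6 and deposited raw counts per Ensembl gene from HTSeq 0.10.0, per the submitters' processing notes, without normalization. The annotation release, strand setting and handling of duplicate reads are not given in the sources used here, so antisense and overlapping genes are uncertain.

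WGP was compared with PBS in R 4.3.3 with the quasi-likelihood test of edgeR 4.0.16 after TMM normalization, over 14429 protein-coding genes whose RLE-normalized counts reached 10 in sum over the 6 libraries, with Benjamini-Hochberg adjustment. Levels are TMM-scaled CPM. Genes were called at an adjusted p no higher than 0.05 and a log2 fold change of 1 or more in either direction. Exon lengths and positions came from GENCODE vM21, and promoters from RefSeq (GRCm38.p6). Family shares were compared with exact two-sided permutation tests. No 2 libraries of a group agreed within sampling noise.

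The members and lists were chosen with earlier results of these data known. Named genes are the 10 members, in each list the 3 genes of smallest edgeR p among those past the adjusted p, and the 3 genes most correlated with Fos, Jun and Egr1. The values of 1 gene among these are not reported here. Fosl1, Fosl2, Nab1, Nab2, Dusp1, Map3k8, Hspa1a, Hspa8, Hspa5, Hspd1 and Hsp90ab1 were named with their values known. As alternatives the tests were repeated with RLE, upper-quartile and library-total scaling, DESeq2 1.42.0, limma-voom (limma 3.58.1), 3 other count filters, the replicate number as a block, a covariate for Y-linked counts, each library left out in turn, a fold threshold of 0.5 and shares of raw counts.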

Additional observations from a re-analysis of the deposited data

How the results depend on the processing

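Of the 10 members 5 were called lower and 0 higher under every scaling, test, filter and covariate tried and without each library in turn, and between 5 and 6 were past the adjusted p lower without a library. With Y-linked counts present as a covariate, which amounts to setting PBS replicate 1 alone against the WGP libraries, the log2 fold change of Fos was 0.025 (adjusted p = 0.994) and that of Dusp1 0.049 (0.943), both reversed in sign and neither past the threshold in the main test, and 3 upstream MAP kinase and serum response genes were called higher in place of 1. With edgeR's filterByExpr 1 of these upstream genes was called lower in place of 2. Without a library in turn the upstream genes called numbered between 1 and 2 in either direction, the other AP-1 and EGR family genes called lower between 2 and 5, and the target genes called lower between 2 and 5. From raw counts not divided by exon length the share of Fosb differed by -37.8 percentage points and that of Egr1 by -17.2. The cause of these shifts was not tested, apart from the change of unit in the last 2. Scaling by library totals only moved the median log2 fold change of all genes from -0.053 to -0.156. DESeq2 called 1703 genes in all, against 1369 in edgeR. Replicate numbers in the labels did not pair the libraries (correlations of deviations from -0.045 to 0.011), and with the replicate block 5 members were called lower and 6 were past the adjusted p, with 1341 genes called in all.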
